A study of Homo sapiens with 6 samples.

Results

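This report describes 201 antisense long noncoding RNAs (lncRNAs, transcripts that are not translated) of 2 bladder cancer lines, together with the protein-coding sense genes they are named after. The members were chosen by their summed counts and their names: they were the lncRNA rows of the gene table whose symbol ends in -AS and a number and whose counts, summed over all 6 libraries, reached at least 200, out of 18936 genes in all. Of 586 antisense-named lncRNAs, 380 lay under that minimum and 5 were left out by their symbol, which were EPB41L4A-AS1 and 4 genes of the HOX clusters. Their high level is therefore no finding. A gene that is silent in one line entered through the other, as LYPLAL1-AS1 did. The members just inside the minimum were SCOC-AS1 with 200, TMC3-AS1 with 207 and ATP2C2-AS1 with 211 summed counts, and those just outside it were NARF-AS2 and FGF14-AS2 with 199 and PRR34-AS1 with 197. A sense partner was the protein-coding row whose symbol precedes -AS, and 183 members had one while 18 had none in the table.

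RNA sequencing compared UC3, a human bladder carcinoma line, with UC3DDP, a subline that had survived repeated exposure to rising drug concentrations, to find genes that differ with chemoresistance. In the study's text this subline is UC3-R, obtained under both gemcitabine (a nucleoside analogue) and cisplatin, which crosslinks DNA. Both groups were unedited lines, with 3 libraries each, and the resistant group is 1 subline from 1 selection. The study speaks of independent repeats for its experiments in general without naming these libraries, and no source used here tells whether drug was present at harvest. The p-values cover no more than the differences among these 6 libraries, which may be technical.

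Antisense transcripts are made from the strand opposite to a protein-coding gene. Some start back to back with it from a shared bidirectional promoter, others run through its exons or introns, and several are known to act on the transcription, splicing or stability of their sense RNA, while others act elsewhere in the cell. Many are removed quickly by the nuclear exosome, an RNA-degrading complex that is guided by adaptor proteins. FGD5-AS1, OIP5-AS1, PSMA3-AS1, ZEB1-AS1 and DDX11-AS1 are among those studied in tumour cells.

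Total counts ranged from 19467228 to 20803970 per library in UC3 and from 16757610 to 17254683 in UC3DDP. Log2 CPM (counts scaled to library size by TMM) correlated at 0.986 to 0.996 between libraries of one line, across genes, which are not independent replicates. Relative to the UC3 mean, G+C-rich genes exceeded G+C-poor ones by a median log2 CPM of 2.36 in UC3DDP replicate 1, 1.69 in replicate 2 and 1.84 in replicate 3, so that the first stood apart, and by -0.02 to 0.02 in the UC3 libraries. G+C content cannot be told apart from the line, because all 3 UC3DDP libraries carry the difference, and calls are therefore also given with an offset that removes the trend of log2 CPM with transcript G+C content and length. Of 9 urothelial markers, 3 passed the count filter. These were PPARG (14.5 CPM in UC3 and 16.8 CPM in UC3DDP), GATA3 (0.795 and 1.55 CPM) and TP63 (0.0491 and 2.16 CPM). Only TP63 was called, as higher in UC3DDP. The uroplakins UPK1A and UPK2 averaged 0.285 to 0.433 CPM over both lines. Keratins KRT18 (152 CPM in UC3, 289 CPM in UC3DDP) and KRT8 (54.3 and 61.8 CPM) and vimentin, VIM (1516 and 3186 CPM), were abundant. KRT7 was at 2.50 and 6.91 CPM, and the epithelial markers EPCAM and KRT19 were at most 0.218 CPM in either line. The epithelial cadherin CDH1 was at 0 CPM in UC3 and at 3.15 ± 5.45 CPM (SD, n = 3) in UC3DDP. No endothelial marker passed the filter, and PECAM1 varied among UC3DDP libraries (1.13 ± 1.44 CPM).

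None of the sources used here states a strand setting for the counting, and the library kit named in the study's methods does not mark strand. Reads from exonic bases that a member shares with its partner therefore cannot be assigned to one of them. Where a member's exons lie in an intron of its partner, reads of unspliced sense RNA could be counted to the member too. Gene bodies overlapped in 157 of the 183 pairs, so sharing no exonic base does not free a pair from this limit. Placed on the GENCODE 44 annotation, 70 pairs were head-to-head (starts on opposite strands at most 1000 bases apart), 89 overlapped within exons, 20 overlapped only through introns and 4 lay apart. Exonic bases were shared in 135 of the 183 pairs, over the merged exons of all annotated transcripts, and 48 pairs shared none. The exons that the authors counted can differ from these. Of the 70 head-to-head members, 48 started inside the sense gene and 22 upstream of it.

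Per length, the antisense lncRNAs were generally the weaker partner. The median antisense level, as CPM per kilobase of exon (RPKM), was 38.2% of the sense level in UC3 and 43.8% in UC3DDP. The antisense RNA exceeded its partner on that scale in 60 pairs in UC3, in 52 pairs in UC3DDP and in 48 pairs in both lines. These values use the exon length given in the table, which for 172 of 200 members equals the length of 1 GENCODE 44 transcript. With the merged exons of all transcripts, a setting added after the values were seen, the medians were 21.8% and 21.1%, and the antisense RNA exceeded its partner in 36 and 39 pairs. In UC3 the member medians stood at 4.12 CPM for antisense RNAs against 35.7 CPM for sense genes, and 59 of the 201 members reached 10 CPM in either line. Together the members took 0.184% to 0.192% of all counts in UC3 libraries and 0.152% to 0.158% in UC3DDP libraries, ranges that did not overlap. This sum weighs the abundant members most, such as FGD5-AS1 (180 CPM in UC3, 112 CPM in UC3DDP) and PSMA3-AS1 (56.0 and 8.52 CPM). It does not show a fall of the members as a class, since their median was 4.12 CPM in UC3 and 4.69 CPM in UC3DDP. No G+C offset was applied to it.

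In UC3DDP, 32 members rose and 32 fell, and 137 did not pass the test (edgeR quasi-likelihood test, adjusted p under 0.05 and a log2 fold change over 1 in either direction). That is 15.9% of members in each direction, beside 17.6% higher and 23.1% lower of the 15120 genes tested (40.7% in either direction). The median log2 fold change was -0.07 over the members and 0.02 over all genes tested. In this fit the members' share called higher was close to the background and the share called lower was below it. Of the 663 other lncRNAs above the same count minimum, 80 rose and 180 fell, with a median of -0.23. With the G+C and length offset, 34 members rose (16.9%) and 33 fell (16.4%), beside a background of 14.3% and 13.1% (27.4% in either direction). Both shares then lay above the background. Of the 663 other lncRNAs, 89 rose and 126 fell with the offset. Their median was then -0.15, beside -0.09 over the members, so the 2 sets lay closer together than without it. In all, 22 members were called higher and 21 lower in both fits. The lines did not overlap in 147 members (73.1%), while 83.7% of all tested genes did not overlap. Of the 64 called members, 55 kept their call whichever library was left out, and the other 9 were near the fold limit, between 0.91 and 1.00 in absolute log2 fold change where the call was lost. Without UC3DDP replicate 1, 33 rose and 32 fell.

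NECTIN3-AS1 rose most. Its partner NECTIN3 encodes a nectin family adhesion molecule of adherens junctions. NECTIN3-AS1 starts 1482 bases inside that gene, runs out of it on the other strand (chr3:110888384-111071553) and shares no exonic base with it. The 3 UC3 libraries held 1.19, 0.931 and 1.49 CPM, and the UC3DDP libraries 27.2, 30.7 and 30.7 CPM. These ranges lie far apart, and the log2 fold change was 4.60 (SE 0.14, adjusted p = 3.8e-08). NECTIN3 itself went the other way in level, with 26.4, 27.2 and 25.7 CPM in UC3 and 14, 17.8 and 15.8 CPM in UC3DDP, also without overlap. Its log2 fold change of -0.74 did not reach the fold limit, and it was 0.82 with the offset, so its direction depends on that setting. The log2 ratio of antisense to sense, taken with a prior count of 2, changed by 5.26 (95% interval 4.77 to 5.74). On that scale this was the largest change of the 169 pairs in which both genes were tested. The prior count limits the change for LYPLAL1-AS1, which fell to 0 counts in UC3DDP. Per kilobase, NECTIN3-AS1 went from 13.8% of the NECTIN3 level to 564% of it (9.93% to 406% with merged exons).

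EPHA5-AS1 and BCAN-AS1 rose together with their head-to-head partners, which encode an ephrin receptor kinase and the neural matrix proteoglycan brevican. EPHA5-AS1 was at 0.347, 0.207 and 0.384 CPM in UC3 and at 4.99, 3.43 and 3.97 CPM in UC3DDP. EPHA5 was at 3.47, 4.96 and 4.56 CPM in UC3 and at 6.95, 10.5 and 9.60 CPM in UC3DDP. Neither gene overlapped between the lines, with log2 fold changes of 3.68 (SE 0.27, adjusted p = 2.0e-06) for the antisense RNA and 1.06 (SE 0.19, adjusted p = 0.00058) for EPHA5. The EPHA5 call was lost without UC3 replicate 1 (0.91) and without UC3DDP replicate 2 (0.92), while its value was 2.44 with the offset. BCAN-AS1, which shares no exonic base with BCAN, held 4.42, 3.46 and 4.47 CPM in UC3 and 24.4, 25 and 25.8 CPM in UC3DDP. BCAN held 0.794, 0.982 and 0.913 CPM in UC3 and 4.87, 4.48 and 4.62 CPM in UC3DDP. Both rose by a similar factor, with log2 fold changes of 2.60 and 2.37, and the interval of their difference spanned 0 (-0.13 to 0.80).

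PPP1R14B-AS1 also rose beside its head-to-head partner, an inhibitor subunit of protein phosphatase 1. Its CPM was 1.69, 1.14 and 1.63 in UC3 and 9.14, 6.22 and 6.22 in UC3DDP, a log2 fold change of 2.27 (SE 0.22). PPP1R14B, an abundant gene at 99.8, 106 and 104 CPM in UC3 and 249, 212 and 221 CPM in UC3DDP, rose by 1.14 on the log2 scale (0.26 and not called with the offset). Both genes were higher in every UC3DDP library than in any UC3 library, and the antisense RNA changed more, by 1.06 (95% interval 0.56 to 1.55).

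Other members rose beside sense genes that were silent or did not reach the fold limit. CD27-AS1 was at 4.76, 5.22 and 4.42 CPM in UC3 and at 27.8, 24.3 and 26.0 CPM in UC3DDP (log2 fold change 2.44, SE 0.10, adjusted p = 1.6e-07). CD27, a lymphocyte receptor of the TNF receptor family, had only 2 summed counts in UC3 and 15 in UC3DDP, a ratio of 8.89 with a 95% exact interval of 2.07 to 80.1, which covers counting error only. RUNDC3A-AS1 was at 0.744, 0.620 and 0.865 CPM in UC3 and at 6.35, 5.23 and 4.80 CPM in UC3DDP (2.86), while RUNDC3A, known from neurons, was at most 0.296 CPM in every library. FOXN3-AS1, inside an intron of the forkhead repressor FOXN3, was at 0.744, 0.620 and 0.336 CPM in UC3 and at 3.32, 3.72 and 3.79 CPM in UC3DDP (2.67). FOXN3 was at 40.8, 43.4 and 43.9 CPM against 46.5, 54.3 and 51.1 CPM (0.25, not called), and the difference between them was 2.27 (95% interval 1.67 to 2.87).

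The remaining 3 of the 10 members that rose most were MIR1-1HG-AS1, SERTAD4-AS1 and ERICH6-AS1. MIR1-1HG-AS1, opposite the host gene of a muscle microRNA, was at 1.14, 1.40 and 0.384 CPM in UC3 and at 4.16, 4.3 and 4.68 CPM in UC3DDP (log2 fold change 2.18, SE 0.30). SERTAD4-AS1 was at 1.59, 1.29 and 1.68 CPM in UC3 and at 6.23, 5.06 and 6.04 CPM in UC3DDP (1.92, and 1.62 with the offset). Its partner SERTAD4 was at 0.45 (not called), and at 1.54 with the offset, so the gap between them depended on that setting. ERICH6-AS1 was at 2.88, 2.95 and 2.50 CPM in UC3 and at 9.32, 10.8 and 11.0 CPM in UC3DDP (1.90). In none of these 3 did the lines overlap, and all 10 were called higher with the offset too.

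**Figure D1:**
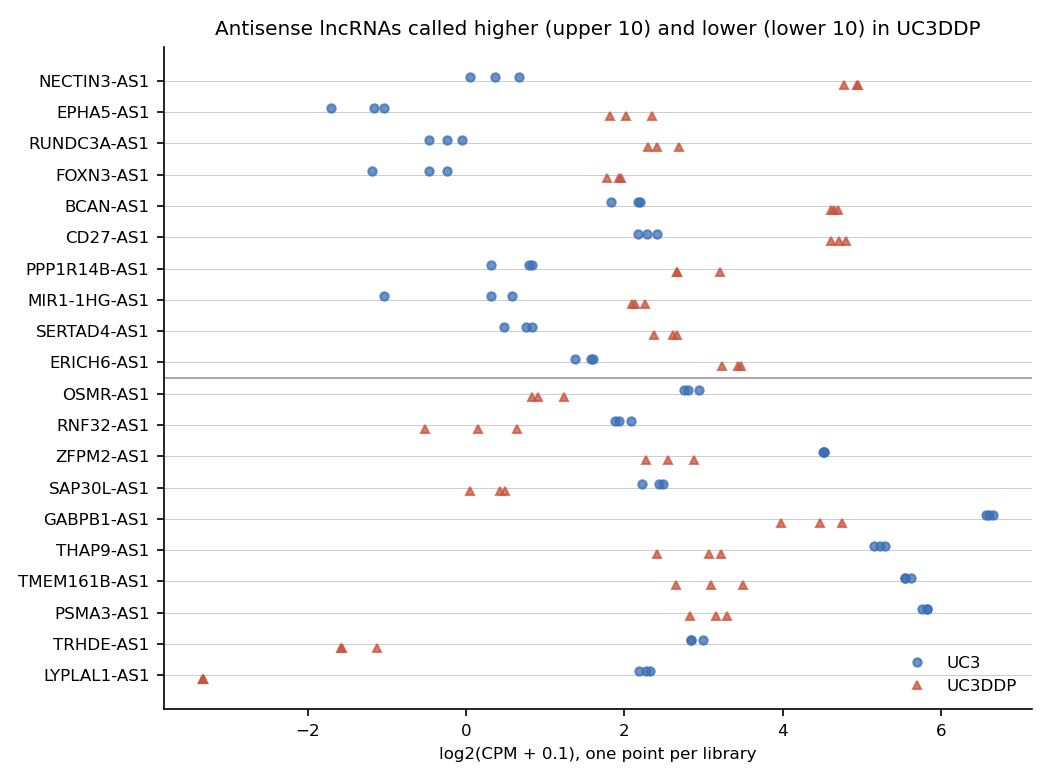
Level of the 10 members that rose most and the 10 that fell most, as log2(CPM + 0.1) on the horizontal axis, with 1 point per library, circles for UC3 and triangles for UC3DDP. The lines do not overlap in any of the 20, and LYPLAL1-AS1 has 0 counts in all 3 UC3DDP libraries, drawn at the left edge.

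LYPLAL1-AS1 went from a measurable level to none. It held 4.71, 4.45 and 4.90 CPM in UC3, 283 counts in all, and 0 counts in each UC3DDP library. Set against 3 counts over the whole group as the floor, the level in UC3DDP was at least 79.6-fold lower. The RNA lies apart from LYPLAL1 (chr1:219409039-219459369), a gene of the lysophospholipase-like family, whose own level fell from 12, 10.8 and 11.0 CPM to 2.37, 2.50 and 2.90 CPM (log2 fold change -2.12, SE 0.12). With the offset LYPLAL1 was at -0.82 and not called, while LYPLAL1-AS1 was called in both fits.

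TRHDE-AS1 fell with its partner, the ectoenzyme that degrades thyrotropin-releasing hormone. TRHDE-AS1 was at 7.09, 7.86 and 7.06 CPM in UC3 and at 0.237, 0.233 and 0.355 CPM in UC3DDP, a log2 fold change of -4.70 (SE 0.20, adjusted p = 1.6e-07). TRHDE was at 8.63, 8.38 and 8.45 CPM in UC3 and at 0.297, 0.698 and 0.355 CPM in UC3DDP, a log2 fold change of -4.21 (SE 0.21). Both were nearly gone from UC3DDP, and the interval of their difference spanned 0 (-0.98 to 0.42). The pair shares 1085 exonic bases, 6.00% of the merged exons of TRHDE-AS1, and both calls held with the offset (-4.10 and -2.45).

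PSMA3-AS1, TMEM161B-AS1, THAP9-AS1 and GABPB1-AS1 were abundant in UC3 and fell beside partners that also fell. PSMA3-AS1 went from 56.7, 54.4 and 56.8 CPM to 7.01, 9.71 and 8.83 CPM (log2 fold change -2.71, SE 0.11), and PSMA3, a subunit of the proteasome core, from 199, 203 and 185 CPM to 54.3, 70.1 and 66.2 CPM (-1.62). TMEM161B-AS1 went from 46.8, 49.2 and 46.7 CPM to 6.17, 11.2 and 8.47 CPM (-2.46), beside -2.33 for TMEM161B. THAP9-AS1 went from 39.1, 35.4 and 37.4 CPM to 5.22, 8.32 and 9.24 CPM (-2.30), beside -2.12 for THAP9, a gene derived from a transposase. GABPB1-AS1 went from 101, 94.8 and 97.9 CPM to 15.6, 26.7 and 22.0 CPM (-2.19), beside -1.39 for GABPB1, a subunit of an Ets family transcription factor. UC3DDP replicate 1 was the lowest library for all 4 RNAs, and their transcripts had G+C contents of 37.2% to 43.3%. With the offset PSMA3-AS1 (-1.62), TMEM161B-AS1 (-1.18) and THAP9-AS1 (-1.87) were still called, GABPB1-AS1 (-0.999) was just short of the limit, and none of the 4 partners was called.

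SAP30L-AS1, OSMR-AS1 and RNF32-AS1 fell beside partners that were not called. SAP30L-AS1 was at 5.31, 4.55 and 5.52 CPM in UC3 and at 1.31, 0.931 and 1.24 CPM in UC3DDP (log2 fold change -2.14, SE 0.17). SAP30L, a subunit of the Sin3 histone deacetylase complex, was at 42.2, 41.9 and 40.2 CPM against 33.7, 38.3 and 38.7 CPM (-0.17, adjusted p = 0.081), and the difference was -1.89 (95% interval -2.37 to -1.41). OSMR-AS1 was at 7.59, 6.62 and 6.87 CPM in UC3 and at 2.26, 1.69 and 1.78 CPM in UC3DDP (-1.88), beside -0.49 for OSMR, the oncostatin M receptor, with a difference of -1.34 (-1.81 to -0.86). Neither pair shares an exonic base, and both antisense calls held with the offset (-1.37 and -1.41). RNF32-AS1 was at 4.12, 3.57 and 3.70 CPM in UC3 and at 0.594, 1.45 and 1.01 CPM in UC3DDP (-1.89), and was not called with the offset (-0.92). RNF32 itself was at 4.02, 3.88 and 3.55 CPM in UC3 and at 6.35, 5.99 and 6.34 CPM in UC3DDP (0.71, not called, and 1.20 and called with the offset), and the ratio changed by -2.56 (95% interval -3.23 to -1.89).

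The other 22 members that rose had log2 fold changes of 1.04 to 1.83, and the other 22 that fell had -1.80 to -1.03. With the offset 12 and 13 of these kept their calls. Among them, chosen after their values were seen, SCOC-AS1 rose from 1.29, 0.672 and 0.721 CPM to 3.03, 2.33 and 3.26 CPM (1.67), and NFYC-AS1 fell from 2.78, 2.17 and 2.83 CPM to 0.891, 1.40 and 0.889 CPM (-1.29). The lines overlapped in neither. NFYC, a subunit of the CCAAT-binding factor NF-Y, was at 53.6, 60.1 and 56.1 CPM in UC3 and at 93.5, 78.0 and 82.4 CPM in UC3DDP (0.58, not called), and the ratio changed by -1.81 (95% interval -2.40 to -1.21).

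Among the 169 member pairs with both genes tested, 7 had both genes higher, 16 had both lower and 3 had opposite calls. Only the antisense RNA was called in 26, only the sense gene in 49 and neither in 68. Over all 326 tested pairs of antisense-named lncRNAs, members or not, these counts were 22, 28, 10, 51, 84 and 131. With the offset, only the antisense RNA was called in 37 of the 169 member pairs. Only the sense gene was called in 29 and neither in 87, so which partner was called alone more often depended on that setting. The 7 that rose together were the pairs of BCAN, EPHA5, HLA-F, LIPE, PPM1F, PPP1R14B and THAP7. HLA-F-AS1 was at 2.28, 1.71 and 1.83 CPM in UC3 and at 6.89, 7.10 and 6.81 CPM in UC3DDP (1.83), and HLA-F, a nonclassical MHC class I gene, rose from 0.744, 0.775 and 0.576 CPM to 22.0, 19.5 and 18.4 CPM (4.83). Reads of HLA genes can be shared between family members, so the HLA-F values are uncertain. The 16 that fell together were the pairs of ADGRL1, CCDC18, CCNT2, FRMD6, GABPB1, KMT2E, LYPLAL1, NR2F1, OTUD6B, PAXIP1 (PAXIP1-AS2), PSMA3, THAP9, THUMPD3, TMEM161B, TMSB15B and TRHDE. Of these, 3 of the 7 and 4 of the 16 were called so with the offset as well, which in all gave 8 pairs higher and 5 lower.

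Over the 169 pairs, the 2 fold changes had the same sign in 109 (64.5%), and across pairs they correlated at Pearson r = 0.41 and Spearman rho = 0.41. With the offset the sign was shared in 96 pairs (56.8%) and r was 0.31. These are descriptions, since partners are measured in the same libraries, may share reads and tend to share base composition. In the 48 pairs with no shared exonic base, r was 0.33 and rho 0.26. By arrangement r was 0.45 over 69 head-to-head pairs, 0.53 over 76 pairs with exonic overlap and 0.00 over 20 pairs with intronic overlap. With the offset these were 0.44, 0.31 and 0.21, so that the order of the arrangements depended on that setting. Of the 169 tested partners 30 rose (17.8%) and 45 fell (26.6%), beside 17.6% and 23.1% of all genes tested. With the offset 23 partners rose and 22 fell, beside 14.3% and 13.1% of all genes tested. More partners fell than rose only without the offset, and the same held over all genes tested.

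**Figure D2:**
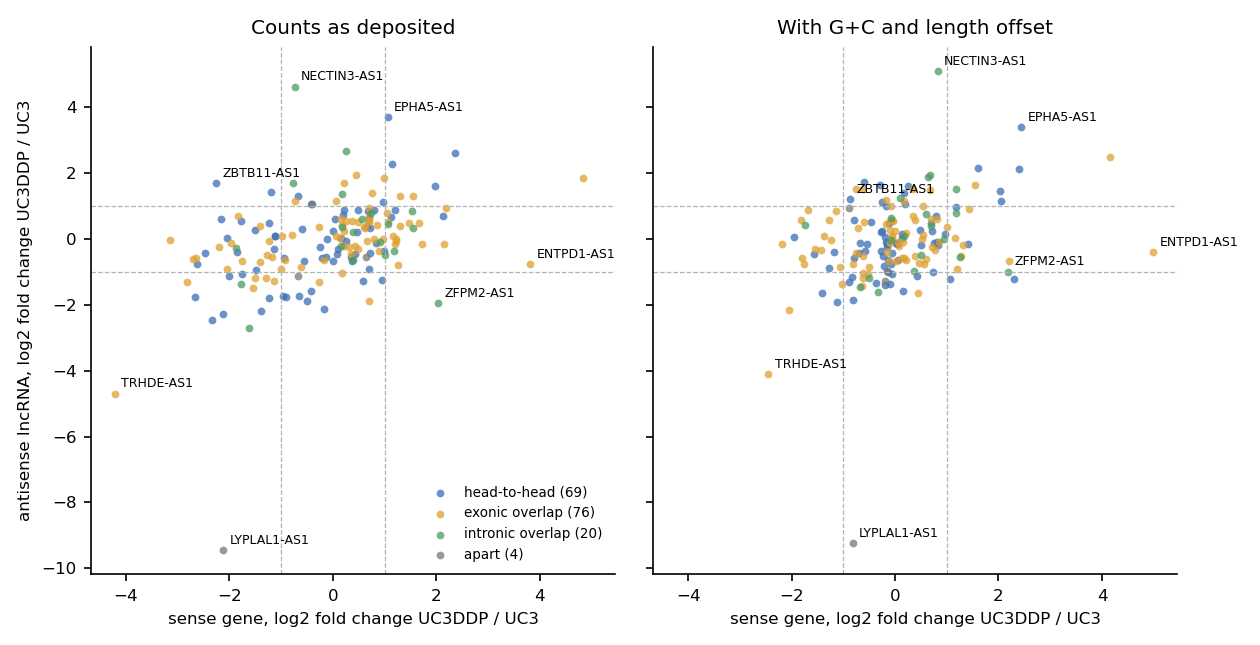
Log2 fold change of the sense gene (horizontal) against that of its antisense lncRNA (vertical) for 169 pairs, 1 point per pair, coloured by arrangement, with dashed lines at the fold limit of 1 in each direction. The left panel is from the counts as deposited (r = 0.41) and the right panel is with the G+C and length offset (r = 0.31), where the sense genes draw closer to 0.

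For the change in the antisense to sense ratio itself, the 95% interval lay above 0 in 53 pairs, below 0 in 56 and spanned 0 in 60. Among intervals that excluded 0, the change exceeded 1 on the log2 scale in 38 pairs and was under -1 in 35. Of the 26 pairs in which only the antisense RNA was called, the interval excluded 0 in 24. These pairs were chosen by calls on the same counts, which favours a change of the ratio, so this is a description and not a test. The intervals were not adjusted over the pairs. With the offset the interval lay above 0 in 52 pairs, below 0 in 63 and spanned 0 in 54. The change then exceeded 1 in 34 pairs and was under -1 in 29. Ratio changes of single pairs are given without the offset unless stated.

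**Figure D3:**
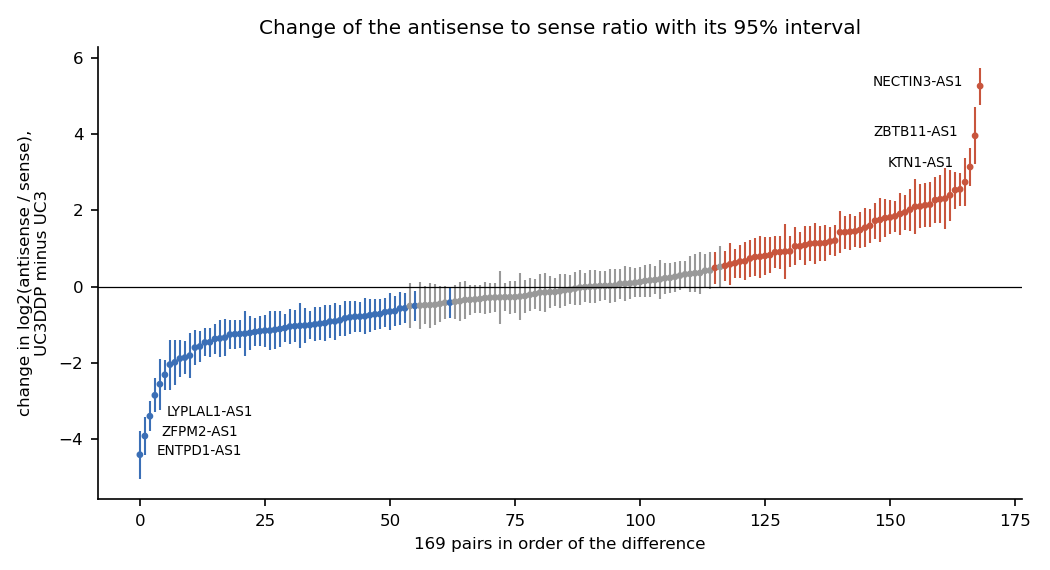
Change in log2(antisense / sense) from UC3 to UC3DDP for 169 pairs in rising order, with vertical bars for the 95% intervals. Intervals above 0 (53 pairs) are red, those below 0 (56 pairs) are blue and those that span 0 (60 pairs) are grey.

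In the 49 pairs with only the sense gene called, that gene rose in 22 and fell in 27. The interval of the change in ratio excluded 0 in 46, and these pairs too were chosen by calls on the same counts. KTN1-AS1 and TTC28-AS1, chosen after their values were seen, are examples in which the antisense RNA overlapped between the lines. KTN1-AS1 was at 9.97, 8.17 and 8.50 CPM in UC3 and at 8.19, 8.49 and 9.12 CPM in UC3DDP, while KTN1, the kinesin-binding protein kinectin, fell from 610.1, 616 and 589.8 CPM to 47.6, 75.5 and 82.8 CPM (log2 fold change -3.14, SE 0.18, and -1.68 with the offset). TTC28-AS1 was at 17.8, 16.8 and 19.3 CPM in UC3 and at 14.1, 17.9 and 16.4 CPM in UC3DDP, while TTC28 rose from 59.1, 58.9 and 56.9 CPM to 250.1, 268 and 262 CPM (2.16, and 2.19 with the offset). The ratio changed by 3.14 (95% interval 2.64 to 3.64) for KTN1 and by -2.31 (-2.70 to -1.92) for TTC28.

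ENTPD1-AS1 had the most negative change of the ratio on the scale with a prior count of 2. That prior count limits the change for LYPLAL1-AS1, which had 0 counts in UC3DDP. By the fitted log2 fold changes LYPLAL1-AS1 fell further from its partner (-9.44, beside -2.12 for LYPLAL1). For ENTPD1-AS1 the levels were as follows. ENTPD1-AS1 was at 33.2, 34.3 and 32.3 CPM in UC3 and at 18.7, 20.9 and 19 CPM in UC3DDP. ENTPD1, the CD39 ectonucleotidase that hydrolyses extracellular ATP, went from 0.397, 0.414 and 0.817 CPM to 6.17, 8.84 and 8.24 CPM. The lines overlapped in neither gene. ENTPD1 rose (log2 fold change 3.81, SE 0.26, adjusted p = 1.5e-06), ENTPD1-AS1 at -0.77 did not reach the fold limit, and the ratio changed by -4.41 (95% interval -5.03 to -3.78). The pair shares 5742 exonic bases, 21.5% of the merged exons of ENTPD1-AS1, so part of the reads cannot be assigned to one of the genes.

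Opposite calls were found for the pairs of ZBTB11, NUP153 and ZFPM2. ZBTB11-AS1 rose from 1.69, 2.58 and 1.92 CPM to 6.95, 5.70 and 7.11 CPM (log2 fold change 1.67, SE 0.18, adjusted p = 1.9e-05). ZBTB11, a zinc finger transcription factor, fell from 106, 103 and 100 CPM to 13.5, 27.6 and 23.4 CPM (-2.26, SE 0.21). The lines overlapped in neither gene, and the ratio changed by 3.95 (95% interval 3.21 to 4.70). NUP153-AS1 rose from 1.19, 1.29 and 1.06 CPM to 2.97, 3.02 and 3.44 CPM (1.41, SE 0.16), and NUP153, a protein of the nuclear pore basket, fell from 258, 275 and 267 CPM to 94.5, 134 and 120 CPM (-1.20, SE 0.12). Both members are head-to-head with partners that they overlap, by 531 and 649 exonic bases. ZFPM2-AS1 fell from 22.9, 23.0 and 22.7 CPM to 4.75, 5.76 and 7.23 CPM (-1.95, SE 0.13), while ZFPM2, a cofactor of GATA factors, rose from 1.69, 1.5 and 1.35 CPM to 6.00, 6.80 and 5.81 CPM (2.03, SE 0.15).

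The offset bore on these pairs unequally. ZFPM2-AS1 (-1.01) and ZFPM2 (2.18) kept their opposite calls. ZBTB11-AS1 was called (1.19) while ZBTB11 was not (-0.87), and neither NUP153-AS1 (0.58) nor NUP153 (-0.80) was, although the offset intervals of the ratio still lay above 0, at 1.54 to 2.56 for ZBTB11 and 0.93 to 1.67 for NUP153. Another 2 pairs had opposite calls only with the offset, RAB33B-AS1 (-1.22) with RAB33B (1.06, and -0.42 without it) and SLC25A21-AS1 (-1.23) with SLC25A21 (2.31).

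**Figure D4:**
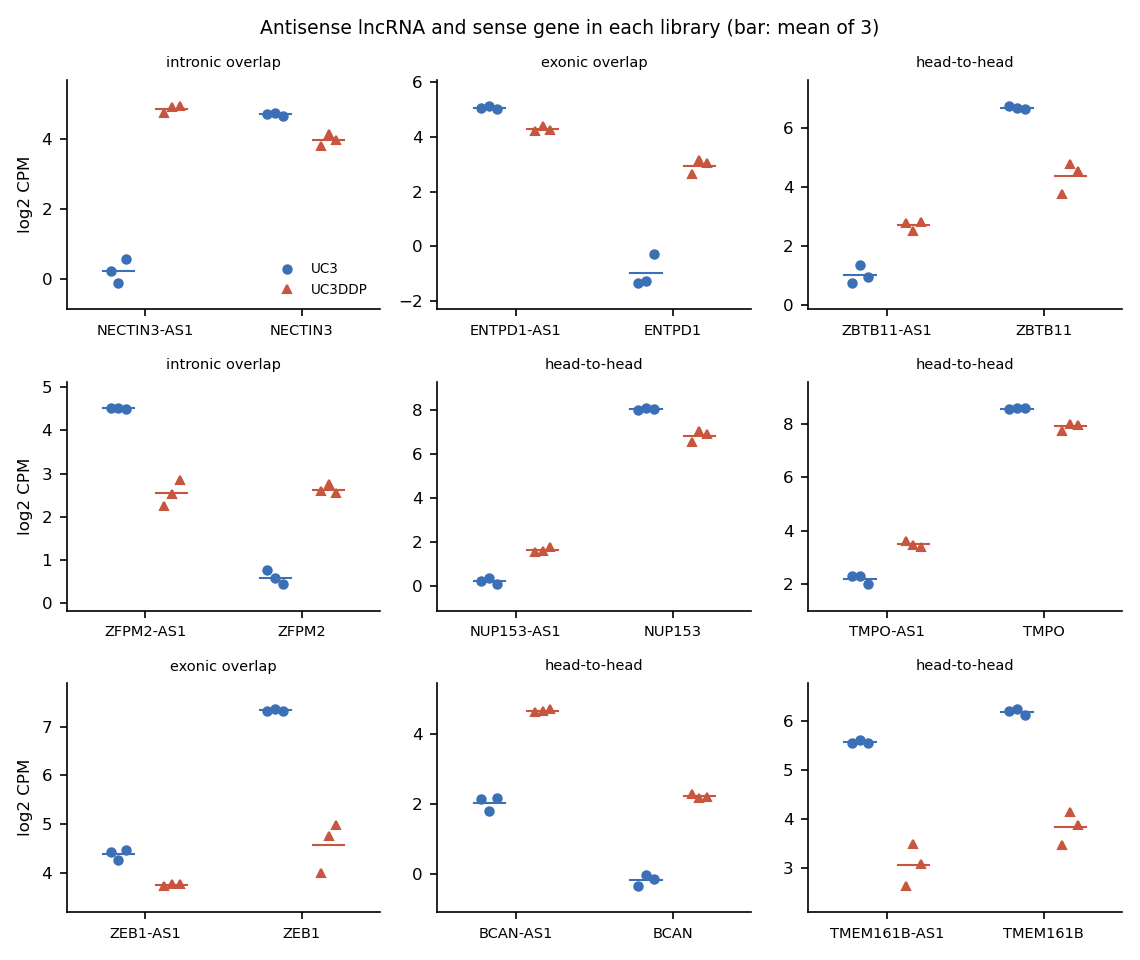
Log2 CPM of the antisense lncRNA (left of each panel) and its sense gene (right) for 9 pairs, with circles for UC3 libraries, triangles for UC3DDP libraries and a bar at the mean of 3. In the panels of ZBTB11, NUP153 and ZFPM2 the 2 genes moved in opposite directions, and in those of BCAN and TMEM161B they moved together by similar amounts.

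Sequences upstream of the sense start are shown for 7 head-to-head pairs, because there the start regions of both genes lie close together. They are the RefSeq promoters of the partners of 5 named members with the largest fold changes, and of ZBTB11 and NUP153, chosen for their opposite calls after the values were seen. Each is the 160 bases before the RefSeq start of the sense gene on GRCh38.p14, read 5′ to 3′ on the sense strand. Capitals mark a match, on either strand, to GGGCGG (the core of the box bound by SP factors), CCAAT (the box bound by NF-Y), TGACGTCA (the cAMP response element), TATAAA (the TATA box), CACGTG (an E-box), TGACTCA (the element of AP-1) or the palindrome of NRF1. A match is a description and not a shown binding site.

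The first group is the pairs in which both genes moved the same way, EPHA5 (chr4:65670490-65670649, minus strand), BCAN (chr1:156641957-156642116, plus strand), PPP1R14B (chr11:64246944-64247103, minus strand) and TMEM161B (chr5:88268846-88269005, minus strand).

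EPHA5 promoter: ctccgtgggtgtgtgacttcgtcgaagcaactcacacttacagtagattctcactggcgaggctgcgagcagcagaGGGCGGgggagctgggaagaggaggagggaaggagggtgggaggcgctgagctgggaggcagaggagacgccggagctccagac

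BCAN promoter: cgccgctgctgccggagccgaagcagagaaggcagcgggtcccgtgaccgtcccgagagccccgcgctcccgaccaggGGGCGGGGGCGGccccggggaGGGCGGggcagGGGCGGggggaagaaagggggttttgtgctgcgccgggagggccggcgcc

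PPP1R14B promoter: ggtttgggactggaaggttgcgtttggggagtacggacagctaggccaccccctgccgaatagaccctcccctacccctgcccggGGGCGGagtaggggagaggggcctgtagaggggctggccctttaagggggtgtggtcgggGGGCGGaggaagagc

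TMEM161B promoter: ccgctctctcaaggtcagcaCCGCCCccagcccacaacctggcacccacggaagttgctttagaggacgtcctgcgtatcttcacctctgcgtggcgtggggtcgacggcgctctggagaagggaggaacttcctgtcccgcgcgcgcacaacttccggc

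Then come SAP30L, whose antisense RNA fell alone (chr5:154445837-154445996, plus strand), and the opposite pairs ZBTB11 (chr3:101677133-101677292, minus strand) and NUP153 (chr6:17706926-17707085, minus strand).

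SAP30L promoter: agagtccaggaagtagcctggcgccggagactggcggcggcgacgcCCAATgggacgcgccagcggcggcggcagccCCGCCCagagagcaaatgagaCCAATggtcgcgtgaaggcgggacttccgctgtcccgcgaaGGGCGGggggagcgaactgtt

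ZBTB11 promoter: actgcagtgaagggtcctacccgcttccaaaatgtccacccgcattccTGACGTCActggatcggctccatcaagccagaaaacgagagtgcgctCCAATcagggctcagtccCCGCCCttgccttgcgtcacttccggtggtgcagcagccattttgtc

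NUP153 promoter: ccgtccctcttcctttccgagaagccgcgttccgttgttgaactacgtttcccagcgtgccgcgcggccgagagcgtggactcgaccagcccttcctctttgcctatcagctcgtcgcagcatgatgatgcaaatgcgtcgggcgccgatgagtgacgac

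GGGCGG occurred in 6 of these 7 stretches, 4 times in that of BCAN, and NUP153 held none of the motifs. CCAAT occurred in SAP30L and ZBTB11, and ZBTB11 also held TGACGTCA. Relative to the RefSeq start, SAP30L-AS1 started 147 bases and TMEM161B-AS1 46 bases upstream, within the printed stretch. BCAN-AS1 started 1113 bases upstream, beyond it, and the other 4 antisense RNAs started inside the sense gene, 528 bases past its start for EPHA5, 657 for ZBTB11, 668 for NUP153 and 982 for PPP1R14B. The G+C content of the 7 stretches ran from 58.1% for ZBTB11 to 79.4% for BCAN.

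Over all 300-base windows of the RefSeq table, from 250 bases before to 50 after a start, GGGCGG was found in 44.6% of 27305 promoters. It was found in 65.1% of the 149 member promoters that matched and in 66.2% of 154 partner promoters. The median G+C content was 58.3% in all promoters, 65% in members and 67.0% in partners. CCAAT was present in 35.7% of all promoters, 34.2% of members and 31.8% of partners, and TATAAA in 12%, 2.7% and 6.5%. The palindromic core of the motif of NRF1, a factor known from housekeeping promoters, was present in 1.4% of all promoters, 6.0% of members and 4.5% of partners, and within head-to-head pairs in 11.8% of 51 members and 7.9% of 63 partners. CACGTG was present in 7.4% of all promoters and 7.4% of members, TGACTCA in 4.9% and 4.0%, and TGACGTCA in 2.0% and 3.4%. The 27305 promoters were taken without regard to expression in these lines, while members had passed a count minimum. These shares are therefore not matched for expression, and its part in them was not tested.

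Of the 5 most abundant members, 2 fell and 3 did not reach the fold limit. FGD5-AS1 led with 184, 177 and 179 CPM in UC3 and 110, 112 and 114 CPM in UC3DDP, without overlap, but its log2 fold change of -0.68 (SE 0.07) did not reach the limit. OIP5-AS1, known as Cyrano and conserved among vertebrates, was at 79.2, 82.8 and 85.5 CPM against 44.6, 60.5 and 52.0 CPM, at -0.66 (SE 0.11) and at 0.45 with the offset, where its direction flips. OVCH1-AS1 was at 39.7, 35.6 and 35.7 CPM against 35.8, 37.9 and 32.2 CPM, and these ranges overlapped (-0.07, adjusted p = 0.48). GABPB1-AS1 and PSMA3-AS1, the others of the 5 most abundant, fell as described above.

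Of a list of 41 antisense lncRNAs with published functions, 22 were members. Of these 1 rose, 3 fell and 18 did not pass the test, beside 17.6% of all genes called higher and 23.1% called lower. With the offset 3 rose, 4 fell and 15 did not pass, beside 14.3% and 13.1%. Their median log2 fold change was -0.28, and -0.21 with the offset. TMPO-AS1 rose, from 4.86, 4.91 and 3.94 CPM to 12.2, 11.1 and 10.3 CPM (1.30, SE 0.13, adjusted p = 1.1e-05). TMPO, a protein of the nuclear lamina, was at 378, 383 and 389 CPM against 216, 258 and 251 CPM (-0.67, not called, and 0.20 with the offset), and the ratio changed by 1.95 (95% interval 1.49 to 2.40). The members that fell were PSMA3-AS1, THAP9-AS1 and NR2F1-AS1, the last from 7.64, 8.06 and 8.93 CPM to 3.15, 4.01 and 3.55 CPM (-1.20), beside -1.5 for the nuclear receptor NR2F1. NR2F1-AS1 was not called with the offset (-0.17), and NR2F1 was (-2.19).

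ZEB1-AS1 and SBF2-AS1 lay closer to their UC3 level than their partners did. ZEB1-AS1 was at 21.4, 19.1 and 22.1 CPM in UC3 and at 13.2, 13.6 and 13.6 CPM in UC3DDP (-0.63, not called). ZEB1, a repressor known for driving epithelial-mesenchymal transition, fell from 160, 164 and 160 CPM to 15.9, 26.8 and 31.5 CPM (-2.71, SE 0.20, and -1.43 with the offset), and the ratio changed by 2.13 (95% interval 1.55 to 2.71). SBF2-AS1 was at 19.2, 18.3 and 17.4 CPM against 9.62, 9.83 and 9.30 CPM (-0.93, not called), beside -2.05 for SBF2, with a change in ratio of 1.14 (0.67 to 1.61). PTPRG-AS1 (-0.70, not called, and 0.31 with the offset) stood beside PTPRG, a receptor phosphatase that fell (-1.42, not called with the offset), and the ratio changed by 0.74 (0.25 to 1.22).

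NNT-AS1 and SOX9-AS1 did not reach the limit while their partners rose. NNT-AS1 was at 8.98, 8.01 and 8.26 CPM in UC3 and at 11.9, 17.4 and 16.9 CPM in UC3DDP (0.87, SE 0.15), and it was called without UC3DDP replicate 1 (1.03) and with the offset (2.10). NNT, the mitochondrial transhydrogenase, rose by 1.20 on the log2 scale, and the interval of the difference spanned 0 (-0.75 to 0.05). SOX9-AS1 was at 1.44, 1.71 and 1.68 CPM against 2.49, 3.20 and 2.84 CPM (0.82, and 1.49 and called with the offset), beside 1.53 for the transcription factor SOX9, with a change in ratio of -0.75 (-1.18 to -0.31). ITGB2-AS1 (0.47), RUSC1-AS1 (0.39) and PXN-AS1 (-0.17) were likewise not called beside partners that rose, namely the leukocyte integrin subunit ITGB2 (1.48), RUSC1 (1.30) and the focal adhesion protein paxillin, PXN (1.20), and none of these 3 partners was called with the offset. The ratio changed by -1.01, -0.91 and -1.37 in these pairs, with intervals under 0.

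Of the other known members, DDX11-AS1 (0.70), KDM4A-AS1 (0.52), SPRY4-AS1 (0.34), PCBP1-AS1 (0.00), MCM3AP-AS1 (-0.22), MAPKAPK5-AS1 (-0.33), TTN-AS1 (-0.51) and FOXD2-AS1 (-0.57) did not reach the fold limit. With the offset FOXD2-AS1 (-1.30) and MAPKAPK5-AS1 (-1.02) were called lower, and TTN-AS1 changed sign (0.45). The 7 sense partners these have in the table lay between 0.10 and 0.79 and were not called.

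Other lncRNA classes are given for comparison by their names. Of 60 divergent transcripts (-DT) above the count minimum, 6 rose and 13 fell, and with the offset 7 rose and 8 fell. Of 110 LINC genes 20 rose and 29 fell, and with the offset 25 rose and 18 fell, so that the balance turned. The 4 intronic transcripts (-IT) fell, and 2 of them did so with the offset. Median log2 fold changes of the 3 classes were 0.06, -0.08 and -1.95, and 0.03, 0.03 and -1.07 with the offset. The background of calls was 17.6% upward and 23.1% downward, and the offset moved it to 14.3% and 13.1%.

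Genes of RNA decay, mostly of the nuclear machinery that removes many antisense RNAs, were measured as a list of 26. Of these 11 fell (42.3%) and 15 did not pass the test, beside 23.1% of all genes called lower. Their median log2 fold change was -0.58. MTREX, the helicase of the nuclear exosome, fell from 157 ± 2.45 to 20.4 ± 5.34 CPM (SD, n = 3; -2.94), and ZFC3H1, an exosome adaptor for polyadenylated RNA, from 133 ± 3.46 to 18.3 ± 5.79 CPM (-2.86). DIS3, the exosome's nuclease (-2.68), the adaptor subunits ZCCHC8 (-1.48) and RBM7 (-1.65) and the exonuclease XRN2 (-1.59) fell as well. Of the core subunits, EXOSC8 (-1.79) and EXOSC9 (-1.27) fell, and the others, from EXOSC3 (-0.75) to EXOSC1 (0.79), were not called. DIS3L, also on the list, fell in both fits (-1.55, and -1.48 with the offset). With the offset 1 gene rose (C1D, at -0.08 without it) and 6 fell (23.1%), with a median of -0.33. The background with the offset was 14.3% higher and 13.1% lower. RBM7 (-0.31), EXOSC8 (-0.96) and EXOSC9 (-0.01) were among those no longer called. The part of the listed genes in the antisense levels was not tested.

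Base composition moved with the calls. The median G+C content was 52.5% in members that rose, 42.5% in those that fell and 47.4% in those not called. In the 38 members under 42% G+C the median log2 fold change was -0.44, and in the 44 members at 55% or more it was 0.57. With the offset these medians were 0.57 and -0.15, and the median G+C content was 45.4% in members called higher and 49.1% in those called lower, so that the order turned. Of the members named above, NECTIN3-AS1, EPHA5-AS1, RUNDC3A-AS1, CD27-AS1, BCAN-AS1, TRHDE-AS1 and LYPLAL1-AS1 kept calls in the same direction under both. A lower level in bulk RNA cannot be told apart from fewer cells that make the transcript.

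**Figure D5:**
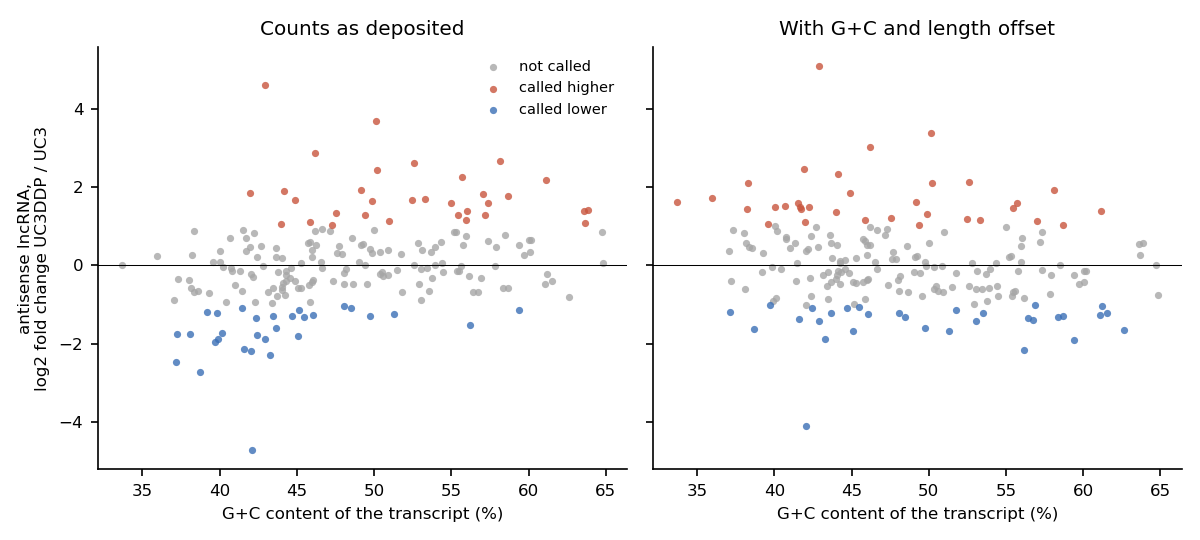
Transcript G+C content in percent (horizontal) against the log2 fold change of 199 antisense lncRNAs (vertical), 1 point per gene, red where called higher, blue where called lower and grey where not called. In the left panel, from the counts as deposited, called-lower members lie mostly at low G+C content (median 42.5%) and called-higher members at high content (median 52.5%), and in the right panel, with the offset, the order of these medians turns (49.1% called lower, 45.4% called higher). LYPLAL1-AS1 lies beyond the scale and is left out.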

How the data were processed

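RNA sequencing counts were analysed for 3 libraries each of UC3 and UC3DDP, grouped by the line and numbered as in the sample titles. Labels disagree: T24 stands in the series text, retinas and a TruSeq kit in the extraction text, and the mouse build mm9 in the submitters' processing notes, whereas the identifiers are human, with 99.8% found in GENCODE 44. Per the study's methods, the authors used a NEBNext Ultra RNA kit, Fastp, HISAT2 on GRCh38 and featureCounts. The deposited values are whole-number counts per gene, not normalized, with at least 10 summed counts per gene. The table also holds 4 columns of the authors' comparison (log2 fold change, linear fold change, p-value and false discovery rate), which were not used, and an exon length per gene in bases from the authors' annotation, used for RPKM and the offset.

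Counts were TMM-scaled and filtered (filterByExpr, minimum count 10), which left 15120 genes, 201 of 201 members and 169 of 183 partners. The test was edgeR 4.0.16 quasi-likelihood in R 4.3.3 over all 6 libraries without covariates, with Benjamini-Hochberg adjustment over all tested genes and calls where the adjusted p was under 0.05 and the log2 fold change beyond 1 in either direction, as in the study. Antisense to sense ratios were tested by limma 3.58.1 on differences of log2 CPM (prior count 2). 3 against 3 libraries cannot reach an exact permutation p under 0.10, so that all tests pool the spread across genes. The G+C and length offset came from robust loess fits (span 0.3) on the transcript's G+C content, known for 200 members, and exon length. Scripts were tested on simulated data. Alternatives were DESeq2 1.42.0, limma voom, other scaling, filters and count minimums, the offset, the replicate block and leaving out each library.

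Members and lists were chosen with earlier results of these data known. Named are the 10 called members with the largest change in each direction (of those reaching 1 CPM on average in either line), the 5 most abundant, the pairs with opposite calls, the 5 pairs with the largest change of the ratio, and members of the list of known antisense RNAs. Genes of the decay list and HLA-F were named after their values were seen. The symbol TMSB15B had more than 1 protein-coding row, and the nearest on the opposite strand was used. Arrangement and sequences came from GENCODE 44 and RefSeq GRCh38.p14, and sequences with more than 30 bases of UTR in a run were not printed.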

Additional observations from a re-analysis of the deposited data

How the results depend on the processing

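Limma voom, DESeq2 or its size factors, unscaled library totals, no filter and protein-coding and lncRNA genes alone kept all 7 counts of called members, partners and pairs within 1.5 times, and prior counts of 0.5 and 5 did so for the 2 counts of ratio intervals. Without a fold limit, 69 members were higher and 75 lower, 81 partners were higher, and 40 pairs were both higher, 41 both lower and 31 opposite. The G+C and length offset gave 22 partners lower and 5 pairs both lower, and a least-squares loess in its place, added after seeing the data, gave 22 and 6. A summed count of at least 50 gave 70 members higher, 64 lower, 58 partners higher, 88 lower, 20 pairs both higher, 28 both lower and 10 opposite, and one of at least 500 gave 12, 17, 12, 24, 2, 9 and 1, since these change how many pairs are counted. The pairs that share no exonic base gave 8, 8, 7, 7, 1, 2 and 1. Leaving out each library in turn gave 30 to 33 members higher, 31 to 35 lower, 29 to 33 partners higher, 42 to 49 lower, 6 to 9 pairs both higher, 15 to 20 both lower, 3 to 4 opposite, and 49 to 54 intervals above and 54 to 58 below 0. With the offset as well, added after seeing the data, these were 32 to 37, 30 to 35, 21 to 23, 20 to 23, 8 to 9, 4 to 6 and 1 to 4, where 1 opposite pair remained without UC3DDP replicate 1. Merged exon lengths, also added then, moved the median antisense level, as a share of the sense level, from 38.2% to 21.8% for UC3 and from 43.8% to 21.1% for UC3DDP. The cause of these changes was not tested.

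Replicate numbers did not pair the libraries: same-numbered deviations correlated at -0.05, -0.01 and -0.01. With the replicate block, 32 members were higher and 32 lower, 30 partners higher and 45 lower, 7 pairs both higher, 16 both lower and 3 opposite, and with block and offset 22 partners were lower and 5 pairs both lower. Members of few counts, such as EPHA5-AS1 in UC3, carry the larger standard errors, and intervals of count ratios cover counting error only.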
